A study of Ogataea parapolymorpha with 8 samples.

Results

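The enzymes that build amino acids were followed across bioreactor cultures of Ogataea parapolymorpha, a thermotolerant methylotrophic yeast, by sequencing of polyadenylated RNA. Genes were taken as members when the authors' homolog column named 1 of 55 listed Saccharomyces cerevisiae genes for the synthesis of histidine, arginine, branched-chain amino acids, lysine, tryptophan and other aromatic amino acids, threonine, serine, glycine, proline and asparagine. This gave 51 of the 5428 genes in the count table, each matched by a different homolog. No gene carried LEU4, LYS20, TRP1 or SER1 as its homolog, and these 4 are not analysed here. Symbols below are those of the S. cerevisiae homolog, and the roles given are those known in S. cerevisiae. The annotation itself names 38 of the 51, with the same symbol for 37 and BAT1 for the gene called BAT2 here. The 8 libraries fall in 4 groups of 2. The mutant, strain IMX2167, is labelled gut2Δ ndi/ndeΔ, that is, as lacking the mitochondrial glycerol-3-phosphate dehydrogenase and type II NADH dehydrogenases, and was grown with air on 7.5 g/L glucose in SM medium. One mutant group was sampled in batch culture at pH 6. The other came from chemostats held at pH 5 with a dilution rate of 0.1 per h. The wild type, strain CBS11895, was grown only in chemostats, also at 0.1 per h but at pH 6. Its SM medium is labelled with urea, and an antifoam, Tween 80 and 10 mg/L ergosterol were added. The group labelled micro-aerobic had 420 mg/L Tween 80 with 20 g/L glucose, and that labelled aerobic 84 mg/L with 7.5 g/L. The mutant chemostat differs from both wild-type groups in strain, labelled nitrogen source, pH and medium additions together, and from the labelled micro-aerobic one also in glucose and the oxygen label. The mutant batch shares pH 6 with the wild type. It differs from both wild-type groups in growth mode, strain, labelled nitrogen source and medium additions together. From the labelled micro-aerobic group it differs also in glucose and the oxygen label. The parts of such factors in a difference cannot be told apart. Within the mutant, growth mode and pH differ together, and within the wild type glucose, Tween 80 and the oxygen label.

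Yeasts make nearly all amino acids from a few carbon skeletons of glycolysis and the tricarboxylic acid cycle, with nitrogen passed on from glutamate and glutamine. Most of the pathways are held in check by their end products at the first committed enzyme, and parts of the arginine, branched-chain and lysine pathways lie in mitochondria. In S. cerevisiae the transcription factor Gcn4 raises genes of many of these pathways together when amino acids run short, while Arg81, Leu3 and Lys14 act on single pathways. In a chemostat the dilution rate sets the growth rate, while in batch culture cells grow at their own maximal rate until a nutrient runs out.

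All 51 genes passed the filter on low counts. Levels are CPM, the counts of a gene scaled to library size (with TMM, a trimmed mean over genes), and are compared between genes only per kb of gene length. Changes are log2 ratios ± SE, and a gene is said to have risen or fallen when its p adjusted over the 5265 genes tested was below 0.05 in edgeR's quasi-likelihood test. The libraries held 6104949 to 11126081 counts, and the 51 genes together 78002 to 269798 of them. Of the targeted genes, GUT2 had 111 and 94.8 CPM in batch and 29.8 and 27.3 in chemostats of the mutant. Wild-type GUT2 had 357 and 339.5 CPM in the labelled micro-aerobic and 393 and 381 in the labelled aerobic libraries. NDE1, a type II NADH dehydrogenase, had 5.34 and 4.55 CPM in batch and 0.492 and 0.531 in chemostats of the mutant. Wild-type NDE1 had 57.7 and 49.7 CPM in the labelled micro-aerobic and 66.4 and 72.1 in the labelled aerobic libraries. Both were lower in all 4 mutant libraries than in all 4 wild-type libraries, but counts remained on GUT2 in the mutant. The oxygen labels of the wild type were at odds with genes known in S. cerevisiae to rise under low oxygen. HEM13, ERG11, ERG25 and ERG3 were lower under the micro-aerobic label, with changes of -4.29 to -7.92. HEM13 stood at 61.3 and 56.4 CPM in the labelled micro-aerobic against 1202 and 1095 CPM in the labelled aerobic libraries. ICL1 of the glyoxylate cycle and CIT1, citrate synthase, were higher in the labelled micro-aerobic group by 8.38 and 5.36. An exchange of these labels would turn the sign of every change between the wild-type groups. It would also swap these groups in the comparisons with the mutant, so both are called by their labels.

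The mutant batch stood above the other groups for most of the 51 genes, and the chemostats differed in which pathways were low. CPM are shares of a library, so a change in transcripts per cell and a change in the rest of the RNA cannot be told apart. Summed over the 51 genes, the level was 16552 and 16720.0 CPM per kb in batch and 8671 and 8066 in chemostats of the mutant, 11364 and 11013 in the labelled micro-aerobic and 11194 and 10165 in the labelled aerobic libraries. The batch sum was 1.99 times the mutant chemostat's, and the mutant chemostat sum was 0.75 and 0.78 times those of the wild type labelled micro-aerobic and labelled aerobic. Sums were not tested, since an exact permutation test of 2 against 2 libraries cannot give a p below 0.333. Both batch libraries lay above the other 6 for 40 of the 51 genes, as for 17.8% of all genes tested. The batch had the highest group mean for 43 of the 51 genes (25.8% of all genes) and the lowest for 0 (24.0% of all genes). The highest mean was the mutant chemostat's for 1 gene (28.6% of all genes), the labelled micro-aerobic group's for 3 (16.9%) and the labelled aerobic group's for 4 (28.7%). The lowest mean was the mutant chemostat's for 24 genes (26.8% of all genes), the labelled micro-aerobic group's for 10 (16.6%) and the labelled aerobic group's for 17 (32.7%). Both mutant chemostat libraries lay below the other 6 for 16 genes (14.7% of all genes), and both labelled aerobic libraries for 13 (20.0%). Both labelled aerobic libraries lay above the other 4 chemostat libraries for 20 genes (28.0% of all genes). Among the 8 genes that did not peak in batch, ARG3, ARG5,6 and PRO3 were highest in the labelled aerobic group. ARG1, ARG4 and ARO7 were highest in the labelled micro-aerobic group and ARG2 in the mutant chemostat. Most of them belong to arginine synthesis.

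**Figure D1:**
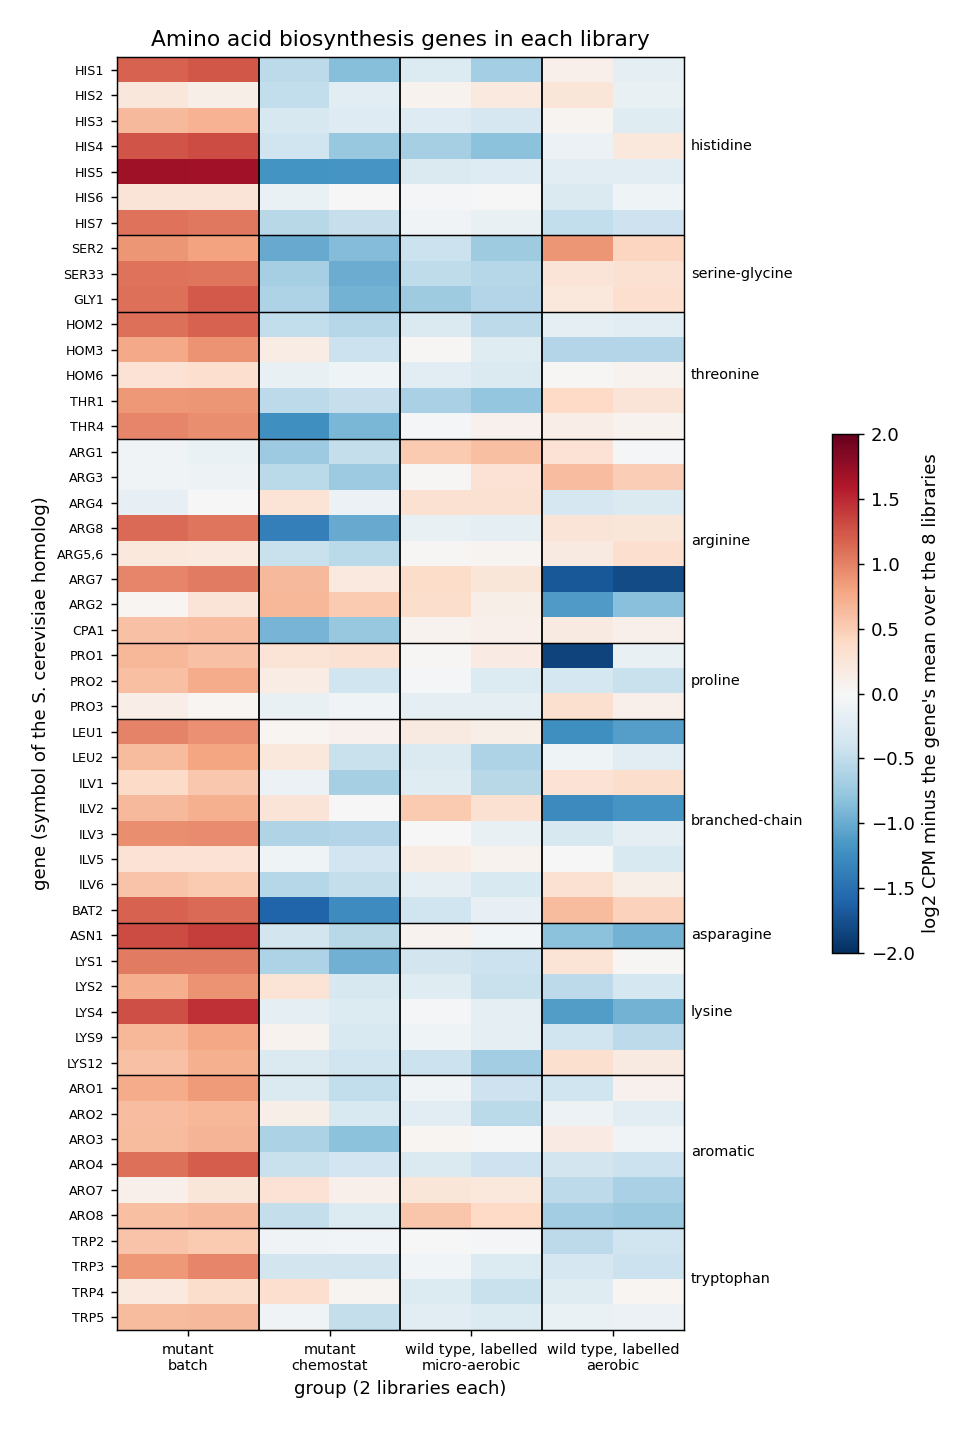
Level of the genes (rows, by pathway, with 1 of the 51 left out) in each of the 8 libraries (columns, 2 per group), as log2 CPM minus the gene's mean over the 8 libraries, red for higher and blue for lower. The batch columns are red for nearly all genes except several of the arginine pathway, and ARG7, LEU1, ILV2, ASN1 and LYS4 are blue in the labelled aerobic columns.

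Per kb, the levels of the 51 genes covered a wide range, and the same few genes led in every group. ILV5, the reductoisomerase of valine and isoleucine synthesis, averaged 2168 CPM per kb in the mutant batch, 1512 in the mutant chemostat, 1906 in the labelled micro-aerobic and 1594 in the labelled aerobic group. ARG1, argininosuccinate synthase, averaged 1451, 1031, 2309 and 1718 CPM per kb in the same groups. These 2 genes held ranks 1 and 2 in all groups, and ILV6, the regulatory subunit of acetolactate synthase, held rank 3 in all of them. PRO1, glutamyl kinase, was the lowest of the 51 in every group, with 31.4, 24.9, 21.8 and 11.96 CPM per kb. Other genes changed rank with the group. BAT2, the branched-chain aminotransferase, ranked 4 in the mutant batch, 18 in the mutant chemostat, 7 in the labelled micro-aerobic and 4 in the labelled aerobic group. LEU1, isopropylmalate isomerase, ranked 7, 5, 6 and 25 in these groups, and ASN1, asparagine synthetase, ranked 8, 14, 12 and 27.

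Within the mutant, batch against chemostat gave 44 genes that rose and 1 that fell, against 24.5% and 26.8% of all genes tested (51.4% in both directions together). The median change of the 51 was 0.94, against -0.02 over all genes. By at least 2-fold, 22 rose and 0 fell (6.93% and 10.4% of all genes). All 8 branched-chain, all 5 lysine, all 5 threonine and all 3 serine and glycine genes rose, as did 6 of 7 histidine, 5 of 6 aromatic, 3 of 4 tryptophan and 7 of 9 arginine genes, ASN1, and 1 of 3 proline genes. The pathway medians were largest for serine and glycine (1.89), asparagine (1.81, 1 gene), histidine (1.58) and threonine (1.36), and smallest for arginine (0.57) and proline (0.34). The 16 genes counted here as entry steps of a pathway or of a branch had a median of 1.01 and the 35 others 0.90. The 1 gene that fell was ARG2, acetylglutamate synthase, by 0.44 ± 0.16 (adjusted p = 0.035). Its call was lost without batch replicate 1 (change -0.32, adjusted p = 0.293) or 2 (-0.55, 0.075) and without mutant chemostat replicate 1 (-0.37, 0.118). It was also lost without labelled micro-aerobic replicate 1 (-0.44, 0.0515) or 2 (-0.44, 0.0502), while 2 genes fell without mutant chemostat replicate 2. The 6 genes without a call were HIS6 at 0.32 ± 0.14 (adjusted p = 0.059), PRO1 at 0.34 ± 0.31 (adjusted p = 0.38), PRO3 at 0.19 ± 0.13 (adjusted p = 0.23), TRP4 at 0.08, ARO7 at -0.03 and ARG4 at -0.17.

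Between the wild-type groups the list split. Labelled micro-aerobic against labelled aerobic, 13 of the 51 genes rose and 14 fell, against 23.2% and 22.3% of all genes tested. Both directions together, 27 of 51 were called, against 45.5% of all genes. The median of the 51 was -0.05 (0.02 over all genes), and its sign turned to 0.045 with upper quartile scaling, which moved the median of all genes by 0.10. By at least 2-fold, ARG7, ILV2, LEU1, ARG2 and ARO8 rose and SER2 and THR1 fell (5 and 2 genes, against 8.95% and 7.86% of all genes). Members of the same pathway moved in opposite directions for arginine (4 rose, 3 fell), branched-chain amino acids (2 rose, 3 fell), lysine (1 rose, 2 fell), threonine and histidine (1 rose and 1 fell in each). The rises in the last 2 were those of HOM3 (0.48, adjusted p = 0.042) and HIS7 (0.34, adjusted p = 0.042), and were not firm. HOM3 lost its call in 7 alternatives (adjusted p up to 0.282), which were RLE scaling and leaving out any 1 of the batch or wild-type libraries (changes 0.34 to 0.61). HIS7 lost it in 9 (adjusted p up to 0.204), which were the same, DESeq2 and the fit of the 2 groups alone (changes 0.30 to 0.38). Serine and glycine was the pathway in which all members (3 of 3) fell. Without labelled micro-aerobic replicate 2 the number that fell was 8 in place of 14.

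The mutant chemostat was compared with both wild-type groups. These comparisons share the mutant chemostat libraries with each other and wild-type libraries with the comparison above, so they are not independent. Against the labelled aerobic group, 14 genes rose and 24 fell in the mutant chemostat, against 31.3% and 29.4% of all genes tested, with a median of -0.20 (0.03 over all genes), which was -0.016 with upper quartile scaling. Both directions together, 38 of 51 were called, against 60.7% of all genes. By at least 2-fold, 5 rose and 7 fell (14.9% and 10.3% of all genes). Against the labelled micro-aerobic group, 1 gene rose and 14 fell, against 13.7% and 13.4% of all genes. Together 15 of 51 were called, against 27.1% of all genes. The median was -0.13 (0.01 over all genes). This median was -0.051 with upper quartile scaling, -0.25 or -0.08 without mutant chemostat replicate 1 or 2, and -0.06 or -0.22 without labelled micro-aerobic replicate 1 or 2. By at least 2-fold 0 rose and 4 fell (3.11% and 1.90% of all genes). Of all calls, 51.6% were rises against the labelled aerobic and 50.7% against the labelled micro-aerobic group, and 63.5% and 65.7% with upper quartile scaling, which moved the all-gene median by 0.18 and 0.08. The number that rose against the labelled aerobic group was 8 without mutant chemostat replicate 1, 7 without labelled aerobic replicate 1 and 8 without labelled aerobic replicate 2. Against the labelled micro-aerobic group, 9 genes fell without either labelled micro-aerobic replicate 1 or 2, 0 rose without either of these or mutant chemostat replicate 1, and 4 rose without mutant chemostat replicate 2. Arginine had most falls in both comparisons, with 6 of 9 genes against the labelled aerobic and 5 of 9 against the labelled micro-aerobic group. All 3 serine and glycine genes fell against the labelled aerobic group and 0 of 3 against the labelled micro-aerobic group. The medians were -1.10 and -0.28.

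**Figure D2:**
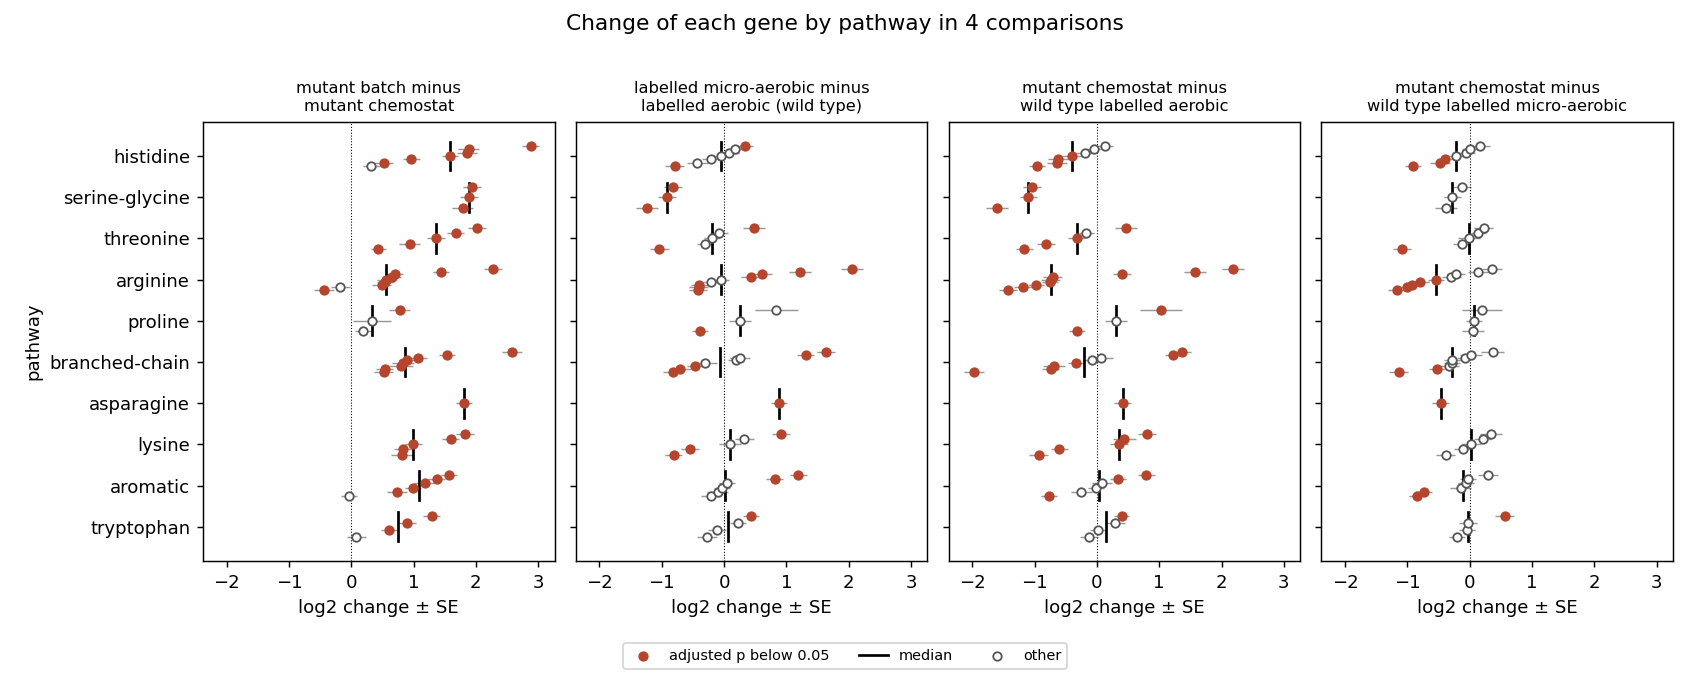
Change of each gene (points, log2 ± SE) by pathway (rows) in the 4 comparisons (panels), with filled points for an adjusted p below 0.05 and a bar at the pathway's median. In batch against chemostat nearly all points lie right of 0, while in the wild type comparison ARG7, ILV2 and LEU1 lie right of 0 and the serine and glycine genes left of it.

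Serine is made from the glycolytic intermediate 3-phosphoglycerate, and glycine from serine or, through threonine aldolase, from threonine. SER33 (OPAR_001154, homolog YIL074C, Chr_02, 920983 to 922392), phosphoglycerate dehydrogenase of the entry step, had 829.8 and 819 CPM in batch and 247 and 196 in chemostats of the mutant. Wild-type SER33 had 275 and 262 CPM in the labelled micro-aerobic and 468 and 481 in the labelled aerobic libraries. GLY1, threonine aldolase, had 260.5 and 282 CPM in batch and 78.4 and 62.7 in chemostats of the mutant. Wild-type GLY1 had 73.7 and 80.5 CPM in the labelled micro-aerobic and 139.6 and 152 in the labelled aerobic libraries. SER2 (OPAR_004591, homolog YGR208W, Chr_07, 124386 to 125285), the phosphoserine phosphatase of the last step, had 102 and 96.2 CPM in batch and 27.2 and 30.1 in chemostats of the mutant. Wild-type SER2 had 40.8 and 33.5 CPM in the labelled micro-aerobic and 101 and 74.2 in the labelled aerobic libraries. For SER33 and GLY1 the batch was above the labelled aerobic group and both were above the other chemostats, with no overlap between these 3 levels. For SER2 the batch and labelled aerobic libraries overlapped. Batch against chemostat, SER33 rose by 1.89 ± 0.14 (adjusted p = 1.4e-07), GLY1 rose by 1.94 ± 0.14 (adjusted p = 1.3e-07) and SER2 rose by 1.79 ± 0.17 (adjusted p = 1.9e-06), which were near each other in size. Labelled micro-aerobic against labelled aerobic, SER2 fell by 1.23 ± 0.18 (adjusted p = 7.3e-05), GLY1 fell by 0.92 ± 0.15 (adjusted p = 0.00017) and SER33 fell by 0.82 ± 0.14 (adjusted p = 0.0003). In the mutant chemostat against the labelled aerobic group, SER2 fell by 1.61 ± 0.18, SER33 by 1.10 ± 0.14 and GLY1 by 1.05 ± 0.14. The summed level of the 3 genes was 914 ± 2.96 CPM per kb in the mutant batch, 246 ± 32.5 in the mutant chemostat, 294 ± 8.26 in the labelled micro-aerobic and 552 ± 7.19 in the labelled aerobic group (SD, n = 2 each). AGX1, the alanine-glyoxylate aminotransferase that makes glycine from glyoxylate in S. cerevisiae, ran the other way. It had 86.8 and 83.0 CPM in batch and 274 and 249 in chemostats of the mutant. Wild-type AGX1 had 218 and 203 CPM in the labelled micro-aerobic and 86.2 and 93.3 in the labelled aerobic libraries. AGX1 fell by 1.62 ± 0.13 (adjusted p = 2.8e-07) in batch against chemostat and rose by 1.23 ± 0.13 (adjusted p = 4.3e-06) in the labelled micro-aerobic against the labelled aerobic group. The serine hydroxymethyltransferases SHM1 and SHM2, which interconvert serine and glycine in mitochondria and cytosol, rose in batch against chemostat by 1.04 ± 0.14 and 1.02 ± 0.13.

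The threonine pathway runs from aspartate through aspartate kinase (HOM3), the shared steps HOM2 and HOM6, and the threonine branch THR1 and THR4, with homoserine also feeding methionine. THR4 (OPAR_005112, homolog YCR053W, Chr_07, 997847 to 999382), threonine synthase, had 1008 and 980.5 CPM in batch and 219.8 and 272 in chemostats of the mutant. Wild-type THR4 had 498 and 546 CPM in the labelled micro-aerobic and 562 and 539.9 in the labelled aerobic libraries. The wild-type groups were thus close to each other, with the batch above and the mutant chemostat below them. THR4 rose by 2.01 ± 0.14 (adjusted p = 8.7e-08) in batch against chemostat. The mutant chemostat was lower than the labelled aerobic group by 1.16 ± 0.14 and than the labelled micro-aerobic group by 1.08 ± 0.14 (adjusted p = 1.2e-05 and 0.00013). THR1, homoserine kinase, had 92.9 and 94.2 CPM in batch and 35.7 and 37.3 in chemostats of the mutant. Wild-type THR1 had 32.7 and 29.9 CPM in the labelled micro-aerobic and 67.1 and 61.4 in the labelled aerobic libraries. It fell by 1.04 ± 0.15 (adjusted p = 8.2e-05) in the labelled micro-aerobic against the labelled aerobic group, with no call for its neighbour in the pathway, THR4, at -0.08 ± 0.14 (adjusted p = 0.67). The annotation's product text for the THR1 gene is a trihydroxynaphthalene reductase, although its symbol and homolog are those of THR1. HOM6, homoserine dehydrogenase, had the narrowest range of the pathway, with 329 and 340.1 CPM in batch and 241 and 254 in chemostats of the mutant. Wild-type HOM6 had 231 and 219.8 CPM in the labelled micro-aerobic and 273 and 283 in the labelled aerobic libraries. It rose by 0.44 ± 0.12 in batch against chemostat (adjusted p = 0.009). Without batch replicate 1 or 2 the change was 0.47 and 0.42 with adjusted p = 0.0617 and 0.0904. HOM3 was the member that moved against the others in the mutant chemostat against the labelled aerobic group, higher by 0.47 ± 0.18 (adjusted p = 0.035), a call lost without mutant chemostat replicate 1 (change 0.15, adjusted p = 0.418) and labelled aerobic replicate 1 (0.46, 0.109) or 2 (0.45, 0.112).

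Histidine is built from ATP and phosphoribosyl pyrophosphate in a pathway in which HIS4 codes for a multifunctional enzyme. HIS5 (OPAR_001085, homolog YIL116W, Chr_02, 805332 to 806540), histidinol-phosphate aminotransferase, had the widest range of the 51 genes over the groups, with 293 and 289 CPM in batch and 39.5 and 39.7 in chemostats of the mutant. Wild-type HIS5 had 74.0 and 75.1 CPM in the labelled micro-aerobic and 77.6 and 76.9 in the labelled aerobic libraries. Its wild-type groups were close to each other, while the batch and the mutant chemostat lay far above and below them. HIS5 rose by 2.88 ± 0.13 (adjusted p = 6.4e-10) in batch against chemostat, the largest change of the 51 genes in that comparison. It fell in the mutant chemostat against both wild-type groups, by 0.96 ± 0.13 (labelled aerobic) and 0.91 ± 0.13 (labelled micro-aerobic). HIS4 had 453 and 472 CPM in batch and 144 and 112 in chemostats of the mutant. Wild-type HIS4 had 120.0 and 108 CPM in the labelled micro-aerobic and 175 and 219 in the labelled aerobic libraries. HIS1, ATP phosphoribosyltransferase of the entry step, had 374 and 388 CPM in batch and 115 and 91.9 in chemostats of the mutant. Wild-type HIS1 had 136 and 103 CPM in the labelled micro-aerobic and 177 and 144 in the labelled aerobic libraries. HIS1 and HIS4 rose in batch by 1.89 ± 0.17 and 1.85 ± 0.16. HIS4 fell by 0.79 ± 0.16 (adjusted p = 0.0011) between the wild-type groups. HIS6, the isomerase of the fourth step, stayed within a narrow band of 84.7 and 84.2 CPM in batch and 64.4 and 70.4 in chemostats of the mutant. Wild-type HIS6 had 69.4 and 70.9 CPM in the labelled micro-aerobic and 57.6 and 66.1 in the labelled aerobic libraries, with no call in any comparison. The 7 genes were therefore unequal in batch, with changes of 0.32 to 2.88. HIS7, imidazole glycerol phosphate synthase (Chr_03, 292381 to 294051, minus strand), lies next to ARO4, a DAHP synthase of aromatic synthesis (Chr_03, 294084 to 295258, minus strand), in the coordinates of the deposited annotation. These neighbours rose in batch by 1.58 ± 0.13 and 1.57 ± 0.13 (adjusted p = 2.6e-07 and 3.2e-07), and their homologs carry neighbouring systematic names in S. cerevisiae. Their values were unequal elsewhere, 0.34 ± 0.13 for HIS7 and 0.05 ± 0.13 (no call) for ARO4 in the labelled micro-aerobic against the labelled aerobic group. HIS7 was at -0.39 ± 0.13 (adjusted p = 0.035) and ARO4 at -0.06 ± 0.13 (no call) in the mutant chemostat against the labelled micro-aerobic group. The difference between the genes was not tested, and this HIS7 call was lost in 7 alternatives (adjusted p 0.0608 to 0.1699). The annotated spans of the 2 genes do not overlap, but whether reads of 1 gene were counted on the other was not tested.

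In arginine synthesis, glutamate is acetylated (ARG2), phosphorylated and reduced (ARG5,6) and transaminated (ARG8), the acetyl group is recycled by ARG7, and ornithine is joined to carbamoyl phosphate by ARG3 before ARG1 and ARG4 finish arginine. ARG7 (OPAR_002936, homolog YMR062C, Chr_05, 253684 to 255031), ornithine acetyltransferase, had 135 and 139.6 CPM in batch and 107 and 78.1 in chemostats of the mutant. Wild-type ARG7 had 88.2 and 81.0 CPM in the labelled micro-aerobic and 21.2 and 19.7 in the labelled aerobic libraries. ARG2 (OPAR_001548, homolog YJL071W, Chr_03, 573811 to 575523) had 51.4 and 60.1 CPM in batch and 79.6 and 72.0 in chemostats of the mutant. Wild-type ARG2 had 64.0 and 54.3 CPM in the labelled micro-aerobic and 22.7 and 28.1 in the labelled aerobic libraries. For both genes the labelled aerobic libraries lay below all others. Labelled micro-aerobic against labelled aerobic, ARG7 rose by 2.05 ± 0.18 (adjusted p = 4.8e-07), the largest rise of the 51 genes, and ARG2 rose by 1.21 ± 0.18 (adjusted p = 8.2e-05). The mutant chemostat was higher than the labelled aerobic group by 2.18 ± 0.18 for ARG7 and 1.57 ± 0.17 for ARG2, and did not pass the test against the labelled micro-aerobic group (0.13 ± 0.16 (adjusted p = 0.55) and 0.36 ± 0.16 (adjusted p = 0.12)). ARG8, acetylornithine aminotransferase, ran in another order, with 419.9 and 400.1 CPM in batch and 73.9 and 94.6 in chemostats of the mutant. Wild-type ARG8 had 172 and 168 CPM in the labelled micro-aerobic and 228 and 226 in the labelled aerobic libraries. It rose by 2.28 ± 0.14 (adjusted p = 2.6e-08) in batch against chemostat. ARG3, ornithine carbamoyltransferase, had 105 and 104 CPM in batch and 76.3 and 66.8 in chemostats of the mutant. Wild-type ARG3 had 112 and 135 CPM in the labelled micro-aerobic and 169.9 and 156 in the labelled aerobic libraries. Here the labelled aerobic libraries were highest, where they had been lowest for ARG7 and ARG2. ARG3 fell by 1.19 ± 0.14 (adjusted p = 9e-06) in the mutant chemostat against the labelled aerobic group. ARG1 had 1858 and 1764 CPM in batch and 1179 and 1394 in chemostats of the mutant. Wild-type ARG1 had 2801 and 2962 CPM in the labelled micro-aerobic and 2378 and 1911 in the labelled aerobic libraries. It fell by 1.16 ± 0.15 in the mutant chemostat against the labelled micro-aerobic group (adjusted p = 0.00016), and the labelled micro-aerobic libraries lay above the other 6.

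Between the wild-type groups the smaller arginine changes were less firm. ARG8 (-0.42 ± 0.14) and ARG3 (-0.40 ± 0.14) fell against the rise of ARG7, ARG2, ARG4 (0.62 ± 0.15) and ARG1 (0.43 ± 0.15). ARG8 lost its call with upper quartile scaling (-0.32, adjusted p = 0.077). It was also lost without any 1 of the batch, labelled micro-aerobic or labelled aerobic replicates (changes -0.40 to -0.44). ARG3 lost its call with upper quartile scaling (-0.30, adjusted p = 0.089). The same held without either batch replicate (-0.40), labelled micro-aerobic replicate 1 (-0.27) or labelled aerobic replicate 1 (-0.34). ARG1 lost its call in the fit of the 2 groups alone (0.43, adjusted p = 0.063) and without either batch replicate (0.42). This call was also lost without labelled micro-aerobic replicate 1 (0.47) or 2 (0.39) or labelled aerobic replicate 2 (0.27). ARG4, argininosuccinate lyase, had the narrowest range of the pathway, with 105 and 118 CPM in batch and 143 and 108 in chemostats of the mutant. Wild-type ARG4 had 146 and 145 CPM in the labelled micro-aerobic and 93.6 and 96.3 in the labelled aerobic libraries. CPA1, of carbamoyl phosphate synthesis, rose by 1.44 ± 0.13 in batch against chemostat. Summed, the 9 genes had 2703 ± 41.8 CPM per kb in the mutant batch, 1695 ± 80.3 in the mutant chemostat, 3258 ± 98.9 in the labelled micro-aerobic and 2723 ± 234 in the labelled aerobic group (SD, n = 2 each). Arginine was the pathway whose sum was not highest in batch. It made up 16.3% of the summed level of the 51 genes in the mutant batch, 20.3% in the mutant chemostat, 29.1% in the labelled micro-aerobic and 25.5% in the labelled aerobic group. ARG1, with ranks 2, 2, 1 and 1 of the 51 in these groups, was the largest part of the arginine sum in each. The order of the arginine sums and these shares thus rest largely on ARG1, not on the pathway as a whole.

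Valine, leucine and isoleucine share acetolactate synthase (ILV2 with its regulatory subunit ILV6), ILV5, ILV3 and a final aminotransferase. ILV1, threonine deaminase, opens the isoleucine branch and LEU1 and LEU2 belong to leucine. ILV2 (OPAR_004603, homolog YMR108W, Chr_07, 143152 to 145188) had 593 and 618 CPM in batch and 451 and 383 in chemostats of the mutant. Wild-type ILV2 had 545 and 467 CPM in the labelled micro-aerobic and 158 and 167 in the labelled aerobic libraries. Its partner ILV6 (OPAR_003827, homolog YCL009C, Chr_06, 418061 to 418960) had 810.4 and 784 CPM in batch and 364 and 391 in chemostats of the mutant. Wild-type ILV6 had 480.3 and 438 CPM in the labelled micro-aerobic and 672 and 592 in the labelled aerobic libraries. The labelled aerobic libraries were thus the lowest of the 8 for the catalytic subunit and the highest of the chemostats for the regulatory one. Labelled micro-aerobic against labelled aerobic, ILV2 rose by 1.64 ± 0.14 (adjusted p = 4.7e-07) and ILV6 fell by 0.46 ± 0.13 (adjusted p = 0.012). ILV6 was at -0.39 with an adjusted p of 0.118 without labelled micro-aerobic replicate 2. The mutant chemostat differed from the labelled aerobic group in the same pair by 1.36 ± 0.14 and -0.74 ± 0.13 (adjusted p = 2.6e-06 and 0.0003). LEU1 (OPAR_004568, homolog YGL009C, Chr_07, 81534 to 83933) followed the order of ILV2, with 1441 and 1364 CPM in batch and 744 and 769 in chemostats of the mutant. Wild-type LEU1 had 815 and 786 CPM in the labelled micro-aerobic and 309 and 337 in the labelled aerobic libraries. LEU1 rose by 1.31 ± 0.13 (adjusted p = 2.3e-06) in the labelled micro-aerobic against the labelled aerobic group, while LEU2, which codes for the next enzyme, was at -0.30 ± 0.19 (adjusted p = 0.22). LEU1 shares 4 bases with another gene, which counting could not assign by strand.

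BAT2 (OPAR_005100, homolog YJR148W, Chr_07, 982299 to 983462) had the widest range of the branched-chain genes, with 980.3 and 955 CPM in batch and 143 and 182 in chemostats of the mutant. Wild-type BAT2 had 330.4 and 386 CPM in the labelled micro-aerobic and 672 and 599.5 in the labelled aerobic libraries. All 4 groups were apart without overlap, and BAT2 rose by 2.58 ± 0.16 (adjusted p = 1.7e-08) in batch against chemostat. It fell by 0.83 ± 0.15 (adjusted p = 0.00051) in the labelled micro-aerobic against the labelled aerobic group. In the mutant chemostat it fell by 1.97 ± 0.15 against the labelled aerobic group, the largest fall of the 51 genes there, and by 1.14 ± 0.15 against the labelled micro-aerobic group. ILV5, the most abundant of them, moved least, with 2766 and 2776 CPM in batch and 2136 and 1729 in chemostats of the mutant. Wild-type ILV5 had 2498 and 2374 CPM in the labelled micro-aerobic and 2250.0 and 1823 in the labelled aerobic libraries. It rose in batch by 0.52 ± 0.16, a call lost without batch replicate 1 (0.54, adjusted p = 0.066), batch replicate 2 (0.53, 0.0675) or mutant chemostat replicate 2 (0.38, 0.0951). LEU9, an isopropylmalate synthase of the leucine entry step counted here among the other steps because LEU4 was the listed homolog, had 1020.3 and 1057 CPM in batch and 946 and 738 in chemostats of the mutant. Wild-type LEU9 had 1028 and 928 CPM in the labelled micro-aerobic and 341 and 397 in the labelled aerobic libraries. LEU9 rose by 1.41 ± 0.15 (adjusted p = 5.5e-06) in the labelled micro-aerobic against the labelled aerobic group, and LEU3, the S. cerevisiae activator of leucine genes, rose there by 0.67 ± 0.19. In batch against chemostat LEU3 fell by 0.51 ± 0.18 (adjusted p = 0.029), while all 8 branched-chain genes rose. Summed, the 8 genes had 5702 ± 0.46 CPM per kb in the mutant batch, 3036 ± 289 in the mutant chemostat, 3759.6 ± 159.6 in the labelled micro-aerobic and 3581 ± 331 in the labelled aerobic group (SD, n = 2 each), the largest sum of any pathway in each group.

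**Figure D3:**
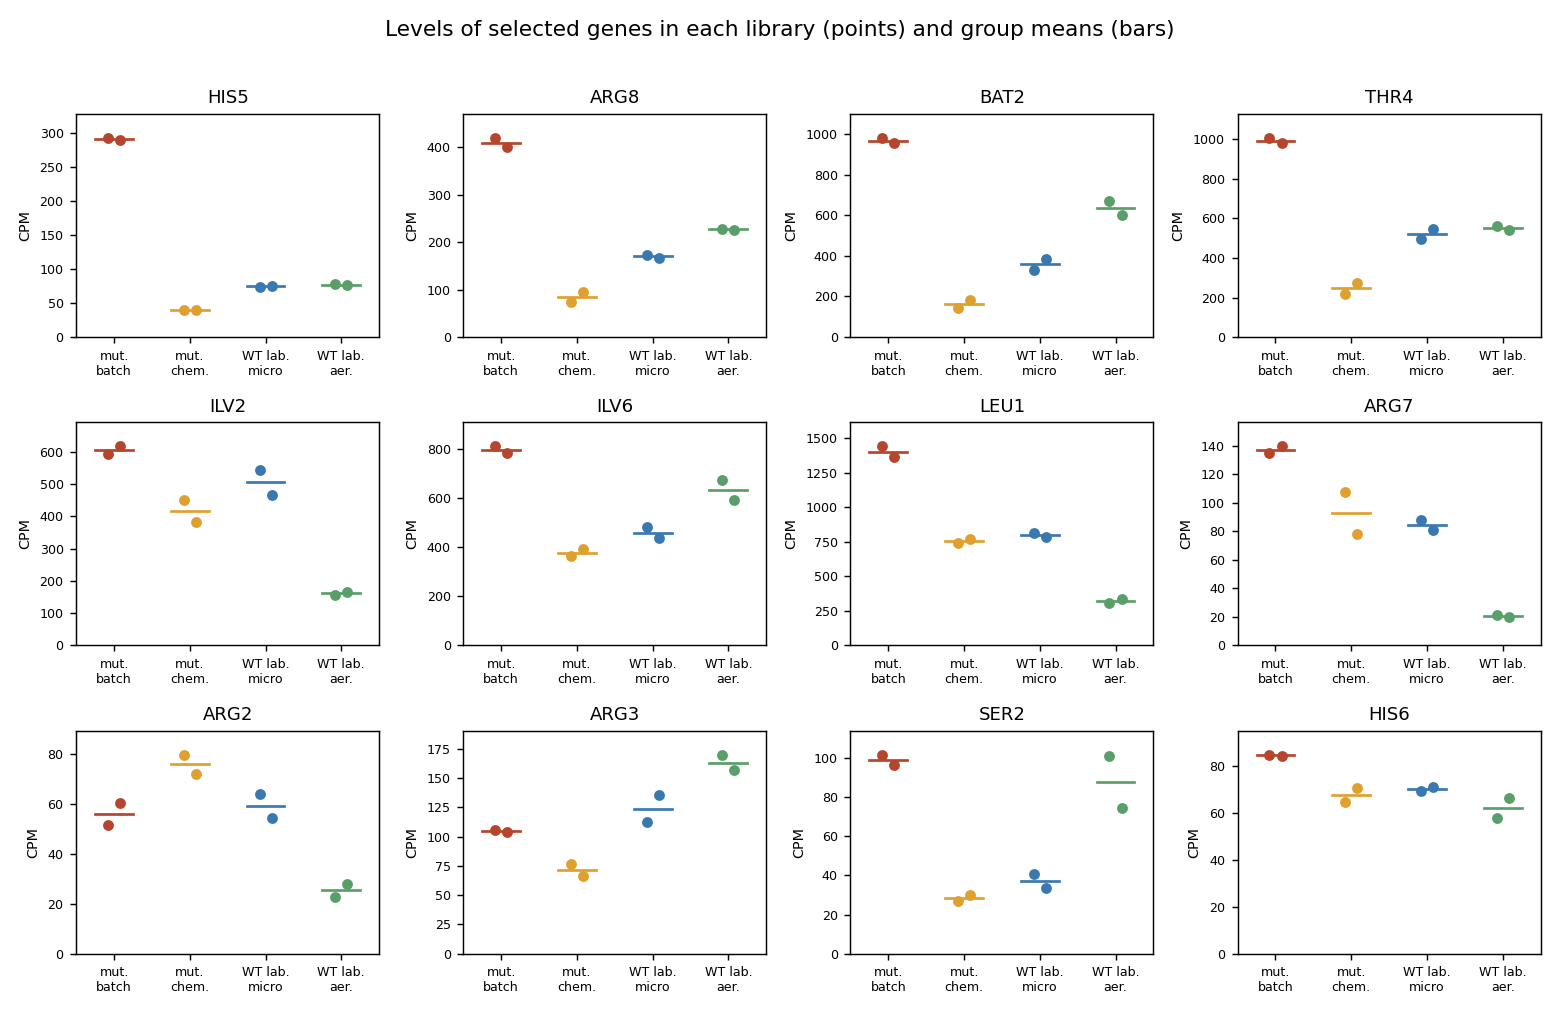
CPM of 12 genes in each library (points) with the group mean (bars), from the mutant batch at the left to the wild type labelled aerobic at the right. ILV2, LEU1, ARG7 and ARG2 are lowest in the labelled aerobic libraries, whereas ILV6, ARG3, BAT2 and SER2 are higher there than in the other chemostats.

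Lysine is made in fungi from 2-oxoglutarate and acetyl-CoA by way of aminoadipate. LYS4 (OPAR_000269, homolog YDR234W, Chr_01, 493070 to 495151), homoaconitase, had the widest range of the pathway, with 178 and 200.5 CPM in batch and 64.4 and 60.3 in chemostats of the mutant. Wild-type LYS4 had 70.8 and 63.7 CPM in the labelled micro-aerobic and 33.8 and 37.7 in the labelled aerobic libraries. LYS4 rose by 0.91 ± 0.15 (adjusted p = 0.0002) in the labelled micro-aerobic against the labelled aerobic group, while LYS12, homoisocitrate dehydrogenase of the next step, fell by 0.81 ± 0.14 (adjusted p = 0.00031). LYS12 had 303 and 328 CPM in batch and 164 and 153 in chemostats of the mutant. Wild-type LYS12 had 149.8 and 125 CPM in the labelled micro-aerobic and 252 and 229 in the labelled aerobic libraries. It overlaps another gene by 30 bases. LYS1, which forms lysine in the last step, had 369 and 371 CPM in batch and 117 and 92.1 in chemostats of the mutant. Wild-type LYS1 had 139.7 and 133 CPM in the labelled micro-aerobic and 216 and 183 in the labelled aerobic libraries. It rose by 1.82 ± 0.15 in batch against chemostat and fell by 0.94 ± 0.15 in the mutant chemostat against the labelled aerobic group. LYS1 also fell between the wild-type groups (-0.55 ± 0.15), with adjusted p = 0.069 without labelled micro-aerobic replicate 2 (change -0.51) and 0.0557 without labelled aerobic replicate 1 (-0.43). LYS9, saccharopine dehydrogenase of the step before, had the narrowest range, with 646 and 691 CPM in batch and 426 and 327 in chemostats of the mutant. Wild-type LYS9 had 383 and 356 CPM in the labelled micro-aerobic and 307 and 282 in the labelled aerobic libraries. LYS4 and LEU1 code for the 2 aconitase-like enzymes of the list, and both were lowest in the labelled aerobic group. That group had the lowest mean for 17 of the 51 genes and for 32.7% of all genes. LYS21, a homocitrate synthase of the entry step counted among the other steps, rose in batch by 1.01 ± 0.14 and had no call between the wild-type groups (-0.11 ± 0.14 (adjusted p = 0.53)). None of the 5 genes passed the test between the mutant chemostat and the labelled micro-aerobic group, where 27.1% of all genes did, and their median was 0.03.

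The shikimate pathway starts with the DAHP synthases ARO3 and ARO4, which in S. cerevisiae are inhibited by phenylalanine and by tyrosine, runs through the pentafunctional ARO1 to chorismate (ARO2), and then splits at chorismate mutase (ARO7) and anthranilate synthase (TRP2 with TRP3). ARO3 had 332 and 344 CPM in batch and 139 and 122 in chemostats of the mutant. Wild-type ARO3 had 221 and 214 CPM in the labelled micro-aerobic and 239.7 and 205 in the labelled aerobic libraries. ARO4 had 286 and 308 CPM in batch and 97.8 and 102 in chemostats of the mutant. Wild-type ARO4 had 109 and 99.97 CPM in the labelled micro-aerobic and 103 and 98.6 in the labelled aerobic libraries. Both rose in batch, by 1.37 ± 0.13 and 1.57 ± 0.13. In the mutant chemostat ARO3 fell against the labelled aerobic group by 0.77 ± 0.13 and against the labelled micro-aerobic group by 0.74 ± 0.13, whereas ARO4 was at -0.01 ± 0.13 (adjusted p = 0.95) and -0.06 ± 0.13 (adjusted p = 0.76). ARO8, an aromatic aminotransferase, had 517 and 535 CPM in batch and 246 and 282 in chemostats of the mutant. Wild-type ARO8 had 499.8 and 451 CPM in the labelled micro-aerobic and 212 and 204 in the labelled aerobic libraries. It rose by 1.19 ± 0.13 (adjusted p = 6.4e-06) in the labelled micro-aerobic against the labelled aerobic group and fell by 0.85 ± 0.13 (adjusted p = 0.0006) in the mutant chemostat against the labelled micro-aerobic group. ARO7 had the narrowest range, with 117 and 128 CPM in batch and 134 and 117 in chemostats of the mutant. Wild-type ARO7 had 129 and 127 CPM in the labelled micro-aerobic and 75.7 and 69.4 in the labelled aerobic libraries. The labelled aerobic libraries were below the other 6, and the gene overlaps another gene by 10 bases. ARO7 rose by 0.82 ± 0.14 (adjusted p = 0.00025) in the labelled micro-aerobic against the labelled aerobic group and was higher in the mutant chemostat than in the labelled aerobic group by 0.79 ± 0.13. Of the tryptophan genes, TRP3, which joins the glutaminase of anthranilate synthase to indole-glycerol-phosphate synthase, had 236 and 254 CPM in batch and 101 and 99.9 in chemostats of the mutant. Wild-type TRP3 had 124 and 107 CPM in the labelled micro-aerobic and 102 and 96.3 in the labelled aerobic libraries. It rose by 1.29 ± 0.13 (adjusted p = 2.8e-06) in batch. Its partner TRP2 rose in batch by 0.61 ± 0.12, and TRP4, the transferase that follows, was at 0.08. TRP4 had 84.4 and 93.2 CPM in batch and 92.6 and 75.9 in chemostats of the mutant. Wild-type TRP4 had 60.6 and 53.7 CPM in the labelled micro-aerobic and 62.4 and 75.3 in the labelled aerobic libraries. TRP4 was the 1 gene of the 51 that rose in the mutant chemostat against the labelled micro-aerobic group, by 0.56 ± 0.16 (adjusted p = 0.021). This call was lost without mutant chemostat replicate 1 (0.41, adjusted p = 0.143) and without labelled micro-aerobic replicate 1 (0.65, 0.0634) or 2 (0.47, 0.204).

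Proline is made from glutamate by PRO1, PRO2 and PRO3, and asparagine from aspartate by asparagine synthetase. Proline was the pathway with the smallest summed change in batch, 497 ± 10.5 CPM per kb in the mutant batch, 405 ± 1.55 in the mutant chemostat, 384 ± 6.17 in the labelled micro-aerobic and 461 ± 36.7 in the labelled aerobic group (SD, n = 2 each). PRO2, glutamyl phosphate reductase, rose by 0.78 ± 0.17 (adjusted p = 0.002) in batch. PRO3, pyrroline-carboxylate reductase, had the narrowest range of the 51 genes, with 317 and 298 CPM in batch and 262 and 277 in chemostats of the mutant. Wild-type PRO3 had 257 and 255 CPM in the labelled micro-aerobic and 362 and 310.3 in the labelled aerobic libraries. PRO1 had 42.5 and 40.5 CPM in batch and 32.5 and 33.2 in chemostats of the mutant. Wild-type PRO1 had 27.3 and 30.2 CPM in the labelled micro-aerobic and 7.44 and 24.1 in the labelled aerobic libraries. Its labelled aerobic libraries were thus far apart. PRO1 rose by 1.03 ± 0.33 (adjusted p = 0.017) in the mutant chemostat against the labelled aerobic group. This call was lost with DESeq2 (1.02, adjusted p = 0.088). It was also lost without labelled aerobic replicate 1 (0.44) and without mutant chemostat replicate 1 (1.04) or 2 (0.99). ASN1 (OPAR_004913, homolog YPR145W, Chr_07, 703062 to 704808) had 930.4 and 982 CPM in batch and 290.3 and 255 in chemostats of the mutant. Wild-type ASN1 had 393 and 361 CPM in the labelled micro-aerobic and 214 and 196 in the labelled aerobic libraries. The 4 groups did not overlap. It rose by 1.81 ± 0.13 (adjusted p = 1.3e-07) in batch against chemostat and rose by 0.88 ± 0.13 (adjusted p = 0.00012) in the labelled micro-aerobic against the labelled aerobic group. The mutant chemostat lay between the wild-type groups, at 0.42 ± 0.13 against the labelled aerobic and -0.47 ± 0.13 against the labelled micro-aerobic group. The first of these was lost in the fit of the 2 groups alone (0.42, adjusted p = 0.087). It was also lost without mutant chemostat replicate 1 (0.32) or labelled aerobic replicate 2 (0.34). The second was lost without mutant chemostat replicate 2 (-0.37) or labelled micro-aerobic replicate 1 (-0.41) or 2 (-0.53).

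**Figure D4:**
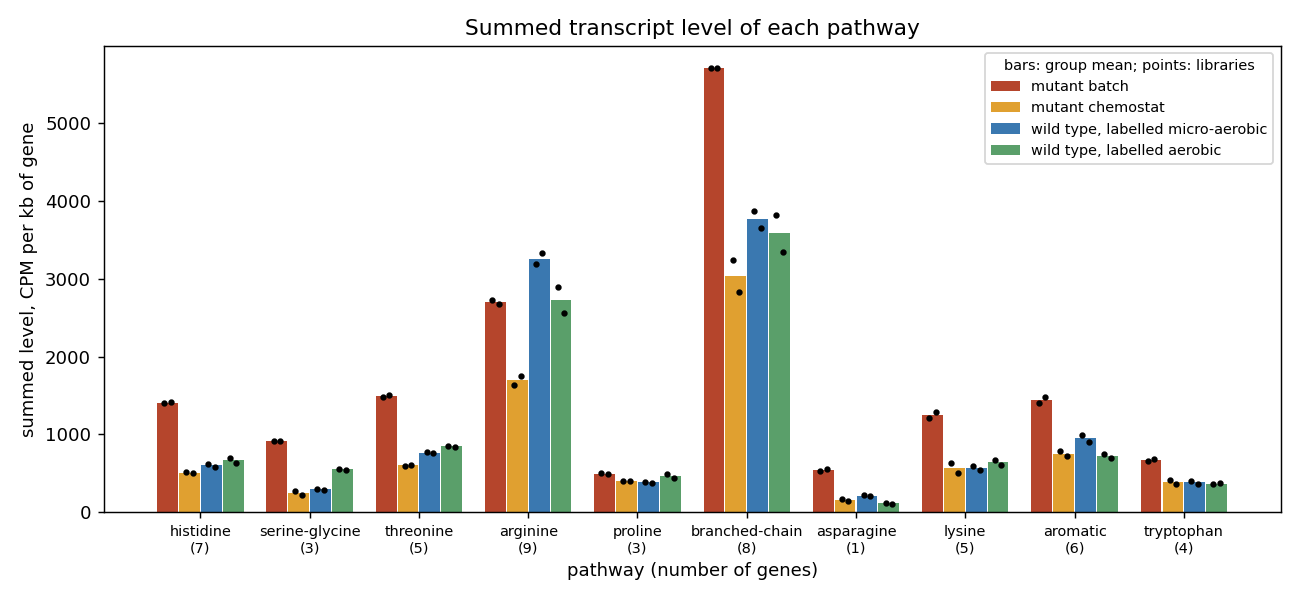
Summed level of each pathway in CPM per kb of gene, as group means (bars) and libraries (points), with the number of genes under each name. The batch bar is the highest of its 4 for every pathway except arginine, where the labelled micro-aerobic bar is highest. ARG1 is the largest part of each arginine bar.

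Genes around these pathways were read from the same fit, with backgrounds as given above for each comparison. Of 11 measured regulators, 2 rose and 2 fell in batch, against 24.5% and 26.8% of all genes. In the labelled micro-aerobic against the labelled aerobic group 4 rose and 4 fell, against 23.2% and 22.3%. In the mutant chemostat 3 rose and 6 fell against the labelled aerobic group (31.3% and 29.4% of all genes). Against the labelled micro-aerobic group 2 rose and 3 fell (13.7% and 13.4%). The regulators' median in batch was -0.13. GCN4 had 3966 and 3863 CPM in batch and 2348 and 2799.9 in chemostats of the mutant. Wild-type GCN4 had 4823 and 5527 CPM in the labelled micro-aerobic and 4069.6 and 3565 in the labelled aerobic libraries. Its transcript rose by 0.60 ± 0.15 (adjusted p = 0.0048) in batch against chemostat and was lower in the mutant chemostat than in the labelled aerobic group by 0.57 ± 0.15 and than in the labelled micro-aerobic group by 1.01 ± 0.15. In S. cerevisiae Gcn4 is controlled mainly at translation, which these data do not measure. The order of the groups thus differed from that of most of the 51 genes, since the labelled micro-aerobic libraries were highest. GCN3, a subunit of the initiation factor eIF2B, rose in batch by 1.02 ± 0.13 (adjusted p = 1.9e-05). ARG81, a regulator of arginine genes in S. cerevisiae, had 15.7 and 15.4 CPM in batch and 27.8 and 18.0 in chemostats of the mutant. Wild-type ARG81 had 19.8 and 13.9 CPM in the labelled micro-aerobic and 68.3 and 55.2 in the labelled aerobic libraries. It fell by 1.87 ± 0.25 (adjusted p = 3.2e-05) in the labelled micro-aerobic against the labelled aerobic group.

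Nitrogen reaches the pathways through glutamate, glutamine and aspartate, and 8 such genes were measured. Of these, 4 rose and 3 fell in batch (median 0.40), against 24.5% and 26.8% of all genes. Between the wild-type groups 3 rose and 2 fell, against 23.2% and 22.3%. In the mutant chemostat 4 rose and 3 fell against the labelled aerobic group (31.3% and 29.4% of all genes). Against the labelled micro-aerobic group 2 rose and 3 fell (13.7% and 13.4%). GDH1, the NADPH-dependent glutamate dehydrogenase, had 4646 and 4942 CPM in batch and 1618 and 1380.5 in chemostats of the mutant. Wild-type GDH1 had 2336 and 2115 CPM in the labelled micro-aerobic and 2937 and 3251 in the labelled aerobic libraries. It rose by 1.68 ± 0.15 (adjusted p = 8.3e-07) in batch. GLT1, glutamate synthase, had 696 and 764 CPM in batch and 1190.0 and 880.0 in chemostats of the mutant. Wild-type GLT1 had 372 and 299 CPM in the labelled micro-aerobic and 202 and 216 in the labelled aerobic libraries. The mutant chemostat was thus above all other libraries, and GLT1 fell by 0.50 ± 0.16 (adjusted p = 0.019) in batch. GDH2, the NAD-dependent glutamate dehydrogenase known for breaking glutamate down, had 652 and 689 CPM in batch and 1280.1 and 1059 in chemostats of the mutant. Wild-type GDH2 had 562 and 473 CPM in the labelled micro-aerobic and 385 and 451 in the labelled aerobic libraries. These 3 genes set the mutant chemostat apart in opposite directions, lowest for GDH1 and highest for GLT1 and GDH2. AAT1, the mitochondrial aspartate aminotransferase, had 1284 and 1347 CPM in batch and 172 and 180.0 in chemostats of the mutant. Wild-type AAT1 had 727 and 631 CPM in the labelled micro-aerobic and 1389 and 1399 in the labelled aerobic libraries. It rose by 2.90 ± 0.14 (adjusted p = 1.6e-09) in batch. AAT2, the cytosolic one, had 57.2 and 52.5 CPM in batch and 208 and 158 in chemostats of the mutant. Wild-type AAT2 had 187 and 167 CPM in the labelled micro-aerobic and 114 and 100.4 in the labelled aerobic libraries. It fell by 1.74 ± 0.16 (adjusted p = 9.4e-07) in batch. DUR1,2, urea amidolyase, was low in the mutant with 129 and 144 CPM in batch and 92.7 and 68.8 in the chemostat, against 407 and 319.9 in the labelled micro-aerobic and 364 and 452 in the labelled aerobic libraries, whose medium is the one labelled with urea. In the comparisons of mutant with wild type, the part of the nitrogen source in the changes of the 51 genes cannot be told apart from that of the strain.

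Among 7 genes of amino acid breakdown, 3 rose and 2 fell in batch (median 0.11), against 24.5% and 26.8% of all genes. Between the wild-type groups 2 rose and 2 fell, against 23.2% and 22.3%. In the mutant chemostat 4 rose and 2 fell against the labelled aerobic group (31.3% and 29.4% of all genes). Against the labelled micro-aerobic group 2 rose and 2 fell (13.7% and 13.4%). GCV2, glycine decarboxylase, rose by 1.69 ± 0.16 in batch, with 298 and 309 CPM in batch and 95.3 and 93.3 in chemostats of the mutant. Wild-type GCV2 had 146 and 141 CPM in the labelled micro-aerobic and 128 and 181 in the labelled aerobic libraries. PUT2, of proline breakdown, fell by 1.39 ± 0.18 in batch, with 52.8 and 57.2 CPM in batch and 159.6 and 129 in chemostats of the mutant. Wild-type PUT2 had 64.6 and 51.4 CPM in the labelled micro-aerobic and 80.1 and 109.5 in the labelled aerobic libraries. GCV3, the H protein of glycine cleavage, rose by 1.13 ± 0.19 (adjusted p = 0.00025) in the labelled micro-aerobic against the labelled aerobic group, and CAR1, arginase, was higher in the mutant chemostat than in the labelled aerobic group by 1.24 ± 0.27. Both measured genes of methionine metabolism rose in batch, MET6, methionine synthase, by 1.08 ± 0.14 and SAM1, S-adenosylmethionine synthetase, by 1.35 ± 0.14. Both fell in the mutant chemostat against the labelled aerobic group, by 0.45 ± 0.14 and 0.47 ± 0.14, and 0 of 2 had a call in the other comparisons. The SAM1 call against the labelled aerobic group was lost with upper quartile scaling (-0.29, adjusted p = 0.091) and in the fit of the 2 groups alone (-0.46, adjusted p = 0.075). It was also lost without mutant chemostat replicate 2 (-0.38). SAM1 overlaps another gene by 177 bases. Of 10 other steps of amino acid synthesis, 4 rose and 1 fell in batch (median 0.24), and 3 rose and 3 fell between the wild-type groups. In the mutant chemostat 3 rose and 3 fell against the labelled aerobic group. The shares of all genes are those given beside the breakdown genes. Against the labelled micro-aerobic group 1 rose and 0 fell. That gene was LYS5, the phosphopantetheinyl transferase for aminoadipate reductase, at 0.70 ± 0.24 (adjusted p = 0.047), a call lost in 8 of the alternatives with adjusted p up to 0.240.

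**Figure D5:**
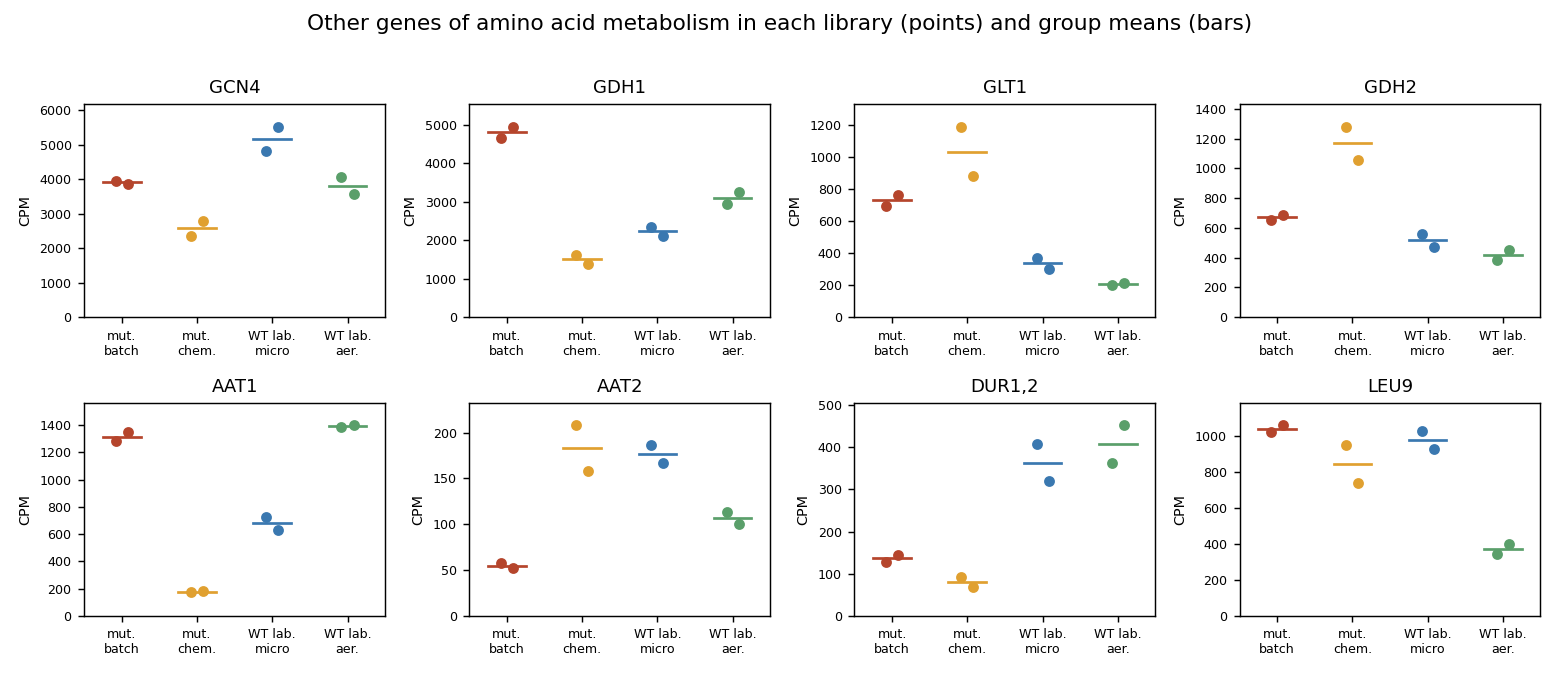
CPM of 8 genes around the pathways in each library (points) with group means (bars), from the mutant batch at the left to the wild type labelled aerobic at the right. GLT1 and GDH2 are highest and GDH1 and AAT1 lowest in the mutant chemostat, and DUR1,2 is lower in the mutant than in the wild type.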

How the data were processed

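Polyadenylated RNA of 8 bioreactor cultures was sequenced from libraries made with a stranded TruSeq kit, per the labels' protocols; 4 groups of 2 were taken from the labels, and the series text calls them biological replicates without more detail. A p-value thus rests on the spread of these samples alone. The authors deposited raw counts of read pairs per gene. Per the file headers, the counter took non-chimeric pairs with both ends mapped, on gene features and without a strand option. Where genes overlap, as LEU1, LYS12 and ARO7 do with a neighbour, their reads cannot be separated. The same holds for SAM1, LEU3 and PUT2 of the other lists, which overlap a neighbour by 177, 11 and 8 bases. Tools listed in the submitters' processing notes are featureCounts 1.6.0, edgeR 3.28.1, SAMtools 1.3.1 and Bowtie 1.2.1.1. Printed coordinates are those of the deposited annotation of strain DL-1, made with funannotate; no build name is given in the sources used here. Homologs came from the authors' homolog column, which gives one for 3250 of 5268 genes; 4 further columns of other libraries in the count table were not used.

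From these counts, edgeR 4.0.16 in R 4.3.3 kept 5265 genes by filterByExpr, scaled libraries by TMM (factors 0.859 to 1.12) and fitted all 8 together with a mean per group (common biological coefficient of variation 0.118, 4 residual degrees of freedom). Each of the 4 comparisons was tested two-sided (quasi-likelihood F test, threshold 0.05 after Benjamini-Hochberg adjustment), and the SE is the absolute change over the root of the F value. CPM use the scaled library sizes and gene lengths of the count table. The steps were tested on simulated data. Alternatives were RLE and upper quartile scaling, no filter on low counts, DESeq2 1.42.0, each library left out, the compared groups alone, overlapping members left out and a culture code block.

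The members, pathways and lists were chosen with earlier results of these data known, and no list was tested as a set. Named in each pathway were the genes with the widest and narrowest range over the groups, the largest called change per comparison, called genes that moved against the majority and genes that overlap another, and in the other lists the largest called change per comparison and GCN4. CPA1, HIS1, HIS4, HIS7, ARO1 to ARO4, LEU2, LEU3, LEU9, ILV6, SER33, AGX1, SHM1, SHM2, PRO2, TRP2, LYS21, MET6, AAT2, GDH1, GLT1, GDH2, DUR1,2 and the genes without a call were added for their place in a pathway, after their values were seen. Promoter and protein sequences were not analysed here, and 1 of the 51 genes stays in counts and sums but is not reported here by itself.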

Additional observations from a re-analysis of the deposited data

How the results depend on the processing

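Of 188 calls (gene and comparison) of the 51 members and the named genes of the other lists, 142 stayed on their side of the threshold under every alternative, 46 lost it under at least 1 and 0 changed sign. Of the members' calls, 39 of 45 (batch against chemostat), 16 of 27 (wild type), 26 of 38 (mutant chemostat against labelled aerobic) and 9 of 15 (against labelled micro-aerobic) held in all. With upper quartile scaling the members' median was 0.045 between the wild-type groups and -0.016 for the mutant chemostat against the labelled aerobic group, and -0.051 against the labelled micro-aerobic group; the cause was not tested. DESeq2 gave 0 members that fell in batch. Fitting the 2 compared groups alone, with fewer samples, gave 8 members that rose in the mutant chemostat against the labelled aerobic group.

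Leaving out each library in turn, the members that rose numbered 40 to 45 in batch, 9 to 14 in the labelled micro-aerobic against the labelled aerobic group, 7 to 14 in the mutant chemostat against the labelled aerobic group and 0 to 4 against the labelled micro-aerobic group. The members that fell numbered 0 to 2, 8 to 16, 20 to 23 and 9 to 16 in the same order. The members' medians ran over 0.92 to 1.11, -0.11 to -0.04, -0.28 to -0.19 and -0.25 to -0.06. Where a group was left with 1 library, it was assumed to vary like the other groups.

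The mutant libraries share culture codes across batch and chemostat, but same-coded libraries deviated in opposite directions (r = -0.27 over 5265 genes). The main fit left them unpaired. With 2 libraries a group, this check cannot show whether the codes mark a shared culture. With the code as a replicate block, 44 members rose and 1 fell in batch, with a median of 0.96. The crossed pairing, chosen after seeing the data, also gave 44 and 1, with a median of 0.96. The planned count of the Gcn4 core motif in promoters was not run. With 2 libraries a group and 4 residual degrees of freedom, the precision is set by the number of libraries as well as by the counts per gene.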
